A study of Mus musculus with 10 samples.

Results

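This report sets 2 populations of mouse splenic B cells against each other that share 1 feature: neither divided in the culture period that ended with its sort. They were chosen by sample label, as the 2 libraries of the group div12_48_u against the 2 libraries of the group div0, which are 4 of the 10 libraries of the series. The comparison runs across all genes of the table, 6610 symbols, and 4427 of them were tested, the rest being too low. The cells came from spleens of C57BL/6 mice, an inbred laboratory strain, and no genetic change is labelled in any group. The div0 cells were pulsed with anti-CD40, which engages a co-stimulatory receptor, and with anti-IgM, which engages the B cell's receptor for antigen, and had not divided at 48 h. The div12_48_u cells come from cells that the same pulse had made divide in those 48 h (div12), which spent another 48 h with anti-CD40 alone at 0.12 µg/ml, and did not divide in that second period. The series calls the first period Phase I, or mitogen-dependent, and the second Phase II, or mitogen-independent. The cells of the second period that did divide (div12_48_d) and resting cells (naive) enter below as reference levels. The div0 cells therefore never divided after activation, whereas the div12_48_u cells divided and then stopped.

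Phase, time in culture, antibodies present, division history and the number of cells taken for RNA (1000000 in Phase I, 500000 in Phase II) change together between these groups and cannot be told apart. The Phase I replicates are pools of 4 to 5 mice each, and pooling in Phase II is not stated in the sources used here. In bulk RNA, fewer cells with a transcript and less of it per cell cannot be told apart either.

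A B cell that meets antigen and CD40 signals leaves quiescence, grows, copies its DNA and divides several times. Entry into S phase is driven by D cyclins and E2F factors, which switch on replication genes, and entry into mitosis by a later set that includes cyclin B, CDK1, the Polo and Aurora kinases and survivin. Survivin (Birc5) is both a member of the inhibitor of apoptosis family and a subunit of the chromosomal passenger complex, which steers chromosome segregation and cytokinesis. Cells that leave the cycle lower these genes and regain transcripts of quiescence, under control of DREAM-type repressors, FOXO factors and others.

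Promoters of mitotic genes are known for pairing a CHR element (TTTGAA) with CCAAT boxes, and lysosomal genes for the E-box core of the CLEAR element (CACGTG). The stretches below belong to genes of the mitotic, replication and lysosome lists. Cdk1, Prc1, Mcm6, Lamp1 and Mcoln1 were picked for their promoters after values were seen, so the stretches are examples and not evidence. They were read from RefSeq promoters of GRCm38.p6, which reach from 250 bases before to 50 bases after a transcript's start, and are given 5′ to 3′ on the gene's strand. Capitals mark the CHR letters TTTGAA, the CCAAT box, the E2F-type motif TTTGGCGC and the E-box CACGTG. Each was sought on both strands, so that a CCAAT box on the other strand reads ATTGG.
Cdk1 (chr10:69352913-69353012, minus strand): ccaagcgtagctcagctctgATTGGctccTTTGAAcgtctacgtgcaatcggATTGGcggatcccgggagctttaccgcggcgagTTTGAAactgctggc
Mki67 (chr7:135716469-135716574, minus strand): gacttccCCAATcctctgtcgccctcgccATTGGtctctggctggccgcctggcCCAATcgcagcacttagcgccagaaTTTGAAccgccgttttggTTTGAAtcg
Prc1 (chr7:80294406-80294475, plus strand): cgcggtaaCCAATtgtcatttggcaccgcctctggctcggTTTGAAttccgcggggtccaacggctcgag
Mcm6 (chr1:128359706-128359825, minus strand): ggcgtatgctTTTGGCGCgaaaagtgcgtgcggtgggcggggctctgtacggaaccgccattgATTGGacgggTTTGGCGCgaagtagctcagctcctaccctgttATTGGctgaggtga
Lamp1 (chr8:13159091-13159160, plus strand): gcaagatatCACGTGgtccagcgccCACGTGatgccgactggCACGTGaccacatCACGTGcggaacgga
Mcoln1 (chr8:3500439-3500489, plus strand): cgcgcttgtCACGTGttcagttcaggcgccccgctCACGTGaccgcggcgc
Ctsa (chr2:164833733-164833772, plus strand): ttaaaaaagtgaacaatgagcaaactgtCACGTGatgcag

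Values are TPM, transcript abundances per length and scaled to the same total of 1000000 in every library, so the sequencing depth is unknown. Below, a pair of levels is always replicate 1 and then replicate 2 of a group. Log2 fold changes are differences of log2(TPM + 1), div12_48_u minus div0, with their standard error, and they understate the change of low genes. The words rise and fall are kept for genes with an adjusted p under 0.05 by limma (Benjamini-Hochberg over the 4427 genes, two-sided, n = 2 libraries a group). Over genes, the log2 ratio of the replicates had an SD of 0.258 in div0 and 0.333 in div12_48_u, with 39 and 65 genes more than 2-fold apart. The 2 resting libraries were less alike, with an SD of 0.55 and 340 genes more than 2-fold apart. The means at rest given below are therefore less firm. The label of B cells was checked against their markers, whose summed level was 59341 and 56997 TPM in div0 and 62402 and 58464 in div12_48_u, and 0 of 10 were called. Cd74, the invariant chain, was the most abundant of them at 36253 and 34941 TPM in div0 and 38907 and 35912 in div12_48_u. Of the 122 genes given a position here, 11 overlap another named gene, and use of strand is not given in the sources used here. They are Tgfb3, Rb1, Gins2, Ctsa, Ccnd3, Lig1, Gapdh, Rad54l, Rtp4, Hexa and Tubb4b, and tubulins, class I genes, globins and Gbp2b may also share reads with close relatives.

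Between the undivided cells of Phase II and those of Phase I, 680 of 4427 genes differed (15.4%). The RNA of 450 genes rose (10.2%) and that of 230 fell (5.20%). Counts of list members below are to be read beside these shares. Of the named genes Apoe had the largest rise, and genes of mitosis, replication and the cytoskeleton were among those that fell. The median change was 0.62 among genes that rose, 92 of them by at least 1 on the log2 scale, and −0.83 among genes that fell, 77 of them by at least 1, against 0.08 over all genes tested. In all 450 and all 230 the libraries of the groups did not overlap, as was so for 68.2% of all genes tested. Remarks below that groups did not overlap therefore describe levels and add no support to a call. The split of the calls depends on the scaling: 341 rose and 380 fell with median-ratio scaling, and 345 rose and 361 fell with quantile normalization, so that 66.2% of calls were rises in TPM and 47.3% and 48.9% under these scalings. The number of calls depends on each library: 236 genes were called without div0 replicate 1, 86 without div0 replicate 2, 289 without div12_48_u replicate 1 and 247 without div12_48_u replicate 2. No gene passed a test against a fold of at least 2 (limma's treat, 0 calls), and 1384 genes had an unadjusted p under 0.05 in the main test.

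**Figure D1:**
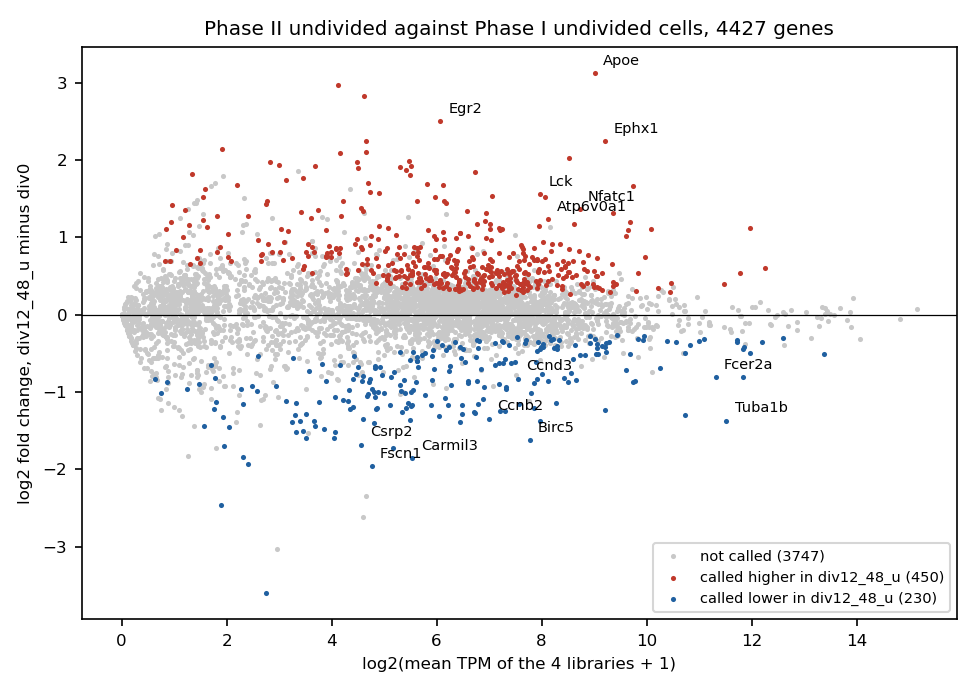
Log2 fold change of each of the 4427 tested genes (vertical axis, log2 of TPM + 1, div12_48_u minus div0) against its mean level (horizontal axis, log2 scale), with 450 genes that rose in red, 230 that fell in blue and 3747 not called in grey. Of the genes labelled in the plot, Apoe, Egr2 and Ephx1 stand highest and Fscn1, Carmil3, Csrp2 and Birc5 lowest, and Tuba1b is the most abundant of the labelled genes that fell.

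Survivin RNA was lower in the cells that had stopped after dividing than in those that had never divided. Birc5 (chromosome 11, 117849251 to 117855743) measured 287 and 372 TPM in div0 and 113 and 98.5 TPM in div12_48_u, a fall by 1.62 ± 0.15 on the log2 scale (adjusted p = 9.67e-04). Both Phase II libraries lay below both Phase I libraries, yet above the mean of 30.7 TPM in resting cells. Of the 4 tested genes of the chromosomal passenger complex 3 fell (75%, beside 5.20% of all genes). Aurkb, its kinase, went from 135 and 183 TPM to 85.9 and 63.3 (−1.08 ± 0.24, adjusted p = 0.0196). Incenp, the scaffold that activates the kinase, went from 182 and 239 TPM to 128 and 88.3 (−0.96 ± 0.23, adjusted p = 0.0277). Neither gene's groups overlapped. Birc5 was called without any 1 of the 4 libraries, whereas Aurkb and Incenp were not without div0 replicate 2 (adjusted p = 0.159 and 0.208) or div12_48_u replicate 2 (0.114 and 0.153). Incenp also missed the threshold without div0 replicate 1 (0.057), without a filter (0.0561), in a fit of the 4 compared libraries (0.059) and with the most abundant transcript (0.059).

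Genes of G2 and mitosis fell nearly as a block. Of 21 tested members of that list 19 fell and 0 rose, with a median change of −1.18, beside 5.20% of all genes that fell and a median of 0.08. All 21 changes were below 0, the smallest being −0.35. Mki67, the Ki-67 antigen of cycling cells, measured 366 and 484 TPM in div0 and 231 and 157 in div12_48_u (−1.14 ± 0.21, adjusted p = 0.0109). Plk1, the Polo-like kinase of mitotic entry, went from 101 and 148 TPM to 58.7 and 36.1 (−1.39 ± 0.31, adjusted p = 0.0215). Both genes were lower in each Phase II library than in either Phase I library. Bub1, a kinase of the spindle checkpoint, went from 56.3 and 71.8 TPM to 29.8 and 19.5 (−1.36 ± 0.21, adjusted p = 0.00582). Ccnb2, a B-type cyclin on chromosome 9 (70407692 to 70421547), went from 164 and 198 TPM to 85.3 and 58.1 (−1.34 ± 0.17, adjusted p = 0.00315). Tpx2, which nucleates spindle microtubules, went from 109 and 143 TPM to 59.2 and 43.2 (−1.28 ± 0.18, adjusted p = 0.00463). These genes had kept more RNA in the stopped cells than at rest, where Bub1 averaged 6.75 TPM, Ccnb2 24.3 and Tpx2 15.8. Kif23, a kinesin of the midzone, went from 133 and 166 TPM to 73.2 and 50.8 (−1.27 ± 0.19, adjusted p = 0.00527).

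Trip13, an ATPase of the spindle checkpoint outside that list, was among the 14 largest falls of named genes, from 37.0 and 42.5 TPM to 17.0 and 12.1 (−1.40 ± 0.18, adjusted p = 0.00315). Of 7 tested condensin, cohesin and centromere genes 4 fell (57.1%, beside 5.20% of all genes), namely Ncapg2, Haus4, Smc1a and Smc4, and 0 rose. Ncapg2, a subunit of condensin II, went from 53.5 and 64.5 TPM to 31.1 and 22.1 (−1.13 ± 0.17, adjusted p = 0.00527). The 4 libraries did not weigh alike: the count of mitotic genes that fell was 18 without div0 replicate 1, 3 without div0 replicate 2, 19 without div12_48_u replicate 1 and 9 without div12_48_u replicate 2, and that of the condensin list 1, 0, 1 and 1. Of the mitotic genes with levels given in these paragraphs, Ccnb2 and Trip13 were called without any 1 of the 4 libraries, 6 were lost without div0 replicate 2 (adjusted p from 0.0518 to 0.167), Plk1 and Mki67 without div12_48_u replicate 2 (0.121 and 0.0662) and Plk1 in a fit of the 4 libraries (0.0508).

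The promoter stretches printed above for Cdk1, Mki67 and Prc1 show the pairing of TTTGAA with CCAAT, but Cdk1 and Prc1 were picked for their promoters. Of 16 mitotic genes that fell and have a promoter in the table, 12 held TTTGAA on either strand (75%), against 14.7% of the 3435 tested genes with a promoter and 20.2% of all 27025 genes of the table. CCAAT stood in 15 of the 16 (93.8%), against 43.2% of tested genes and 41.1% of all, and both motifs in 11 (68.8%), against 5.68% and 7.97%. Among all genes that fell, 24.4% held TTTGAA and 53.4% CCAAT. A gene counts where any of its promoters holds the letters, and a match is a description and not a bound site.

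**Figure D2:**
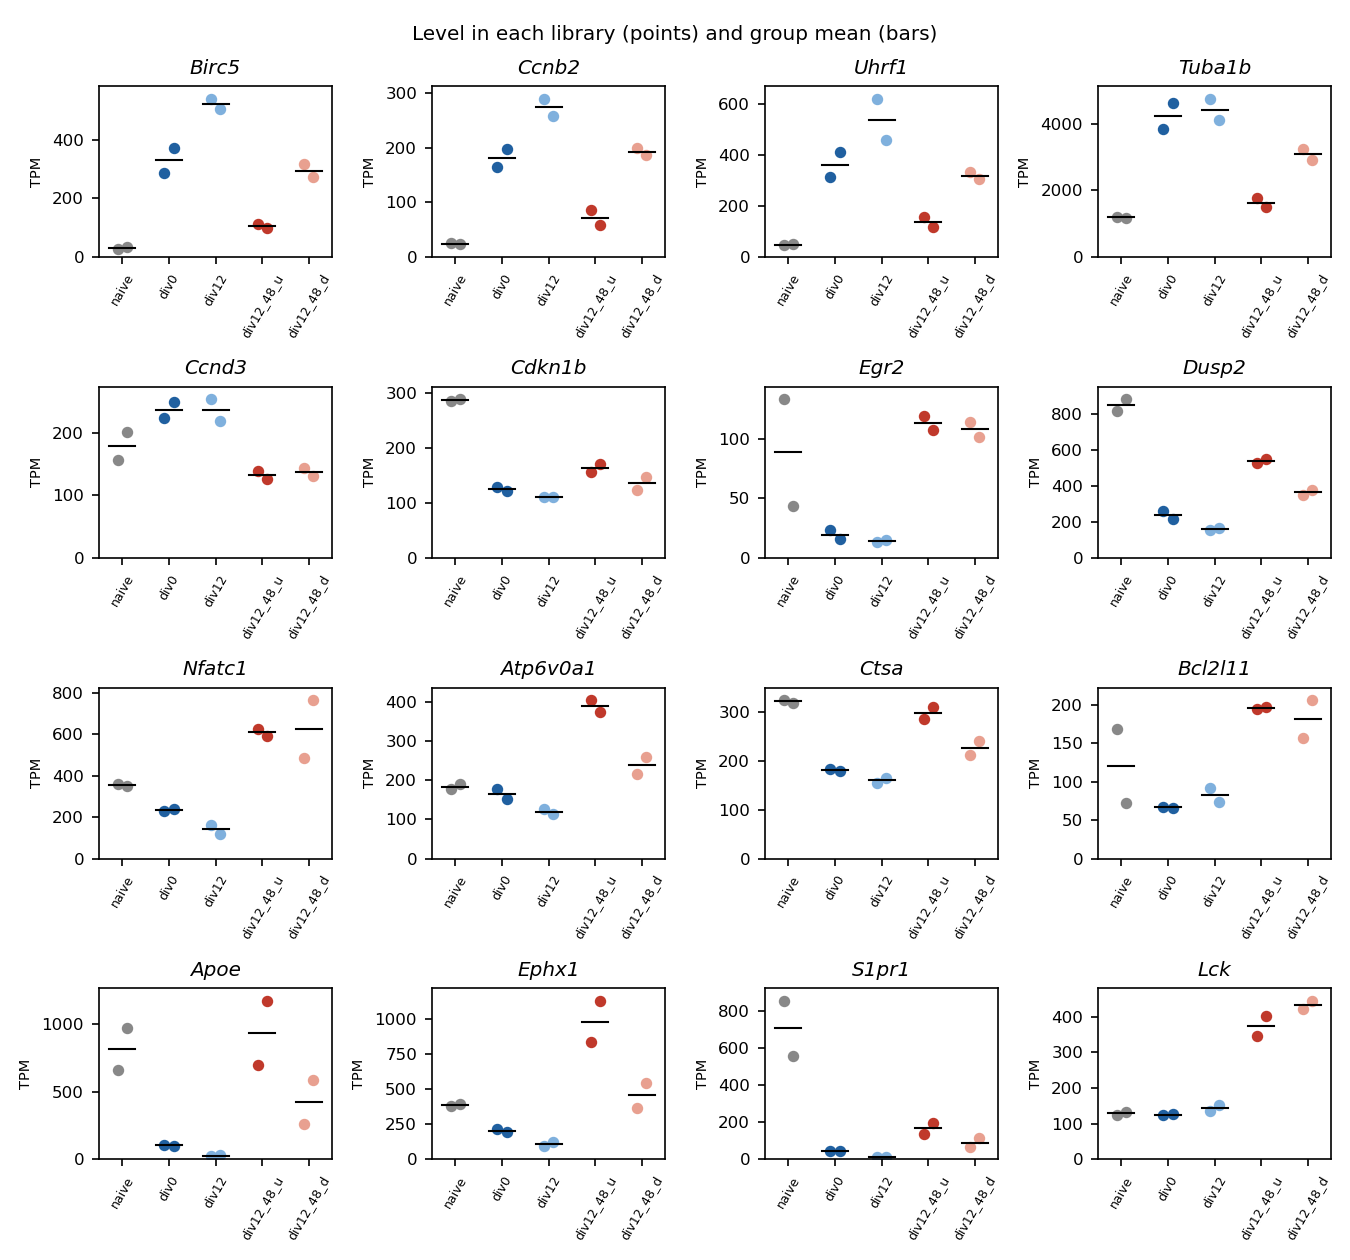
TPM of 16 named genes (vertical axes, linear from 0) in each library (points) with the group mean (bars), for resting cells, both Phase I groups and both Phase II groups. The red points of div12_48_u lie below the dark blue points of div0 for Birc5, Ccnb2, Uhrf1, Tuba1b and Ccnd3 and above them for the other genes, without overlap.

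Tubulin RNA fell with the mitotic genes. The actin and cytoskeleton list had 15 falls (60%, beside 5.20% of all genes) and 1 rise among 25 tested genes, with a median of −0.32. Its 5 largest falls were all tubulins. Tuba1b (chromosome 15, 98931425 to 98934565), an alpha tubulin, went from 3840 and 4631 TPM in div0 to 1764 and 1509 in div12_48_u (−1.37 ± 0.12, adjusted p = 9.67e-04). Tubb5, a beta tubulin, went from 2220 and 2602 TPM to 1088 and 881 (−1.30 ± 0.16, adjusted p = 0.00282). Tubb4b went from 788 and 876 TPM to 385 and 322 (−1.24 ± 0.14, adjusted p = 0.00242). Of the other alpha tubulins, Tuba1a went from 246 and 275 TPM to 124 and 110.1 (−1.15 ± 0.16, adjusted p = 0.00368), below its mean of 372 TPM at rest. In each of these 4 genes every Phase II library was under every Phase I library, and each was called without any 1 of the 4 libraries. The whole list is less stable, with 6, 5, 10 and 8 falls without div0 replicates 1 and 2 and div12_48_u replicates 1 and 2.

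Genes of G1/S and DNA replication fell as well, by less in the median than the mitotic genes. Of 26 tested members 21 fell (80.8%, beside 5.20% of all genes) and 0 rose, with a median of −0.79 and all 26 changes below 0. Uhrf1, which recruits DNA methylation to copied DNA (chromosome 17, 56303321 to 56323486), measured 314 and 411 TPM in div0 and 158 and 119 in div12_48_u (−1.38 ± 0.19, adjusted p = 0.00408). Lig1, the ligase that seals Okazaki fragments, went from 200.1 and 243 TPM to 99.0 and 86.4 (−1.25 ± 0.16, adjusted p = 0.00305). Rrm2, a subunit of ribonucleotide reductase, went from 289 and 351 TPM to 164 and 116 (−1.20 ± 0.17, adjusted p = 0.00408). No library of one group reached into the range of the other. Gmnn, which keeps origins from firing again, went from 145 and 159.9 TPM to 70.3 and 65.9 (−1.15 ± 0.10, adjusted p = 8.16e-04). Gins2, a subunit of the replicative helicase, went from 69.8 and 75.7 TPM to 33.5 and 36.1 (−1.04 ± 0.12, adjusted p = 0.00217). At rest these 5 genes averaged between 16.9 TPM (Gins2) and 53.7 TPM (Lig1), under all of their Phase II levels. The list's falls numbered 18, 7, 20 and 12 without div0 replicates 1 and 2 and div12_48_u replicates 1 and 2. Without div0 replicate 2 Rrm2 missed the threshold (adjusted p = 0.0505), and the other 4 were called without any 1 library.

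Of the replication genes that fell, 15 have a promoter in the table. CCAAT stood in 12 of the 15 (80%), against 43.2% of tested genes and 41.1% of all genes of the table. TTTCCCGC or TTTGGCGC stood in 5 of the 15 (33.3%), against 3.76% and 1.80%. The 5 were Mcm3, Mcm5, Mcm6, Mcm7 and Dnmt1. Among list members that were not called, 1 of 5 held CCAAT (20%) and 1 of 5, Cdt1, held TTTCCCGC or TTTGGCGC (20%). Mcm6, a subunit of the replicative helicase whose stretch above holds TTTGGCGC at 2 places, went from 271 and 306 TPM to 219 and 205 (−0.44 ± 0.09).

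In the DNA repair list more genes fell than rose. Of 21 tested genes 1 rose, Atm (4.76%, beside 10.2% of all genes), and the median was −0.14. Falls numbered 6 (28.6%, beside 5.20%), among them Rad54l, Chek1, Brca1, Bard1 and Blm. These 5 serve homologous recombination or the replication checkpoint. Rad54l, a DNA motor protein of recombination, went from 56.5 and 68.0 TPM to 33.6 and 21.97 (−1.16 ± 0.24, adjusted p = 0.0160). Chek1, the checkpoint kinase, went from 29.5 and 37.7 TPM to 18.2 and 13.3 (−1.05 ± 0.21, adjusted p = 0.0134). Brca1 went from 37.1 and 46.4 TPM to 23.02 and 17.6 (−1.01 ± 0.16, adjusted p = 0.00672). The groups did not overlap in any of the 3. All 3 were lost without div0 replicate 2 (adjusted p from 0.081 to 0.135), Rad54l and Chek1 without div12_48_u replicate 2 (0.0902 and 0.082) and Rad54l without div0 replicate 1 (0.055), and the list's falls numbered 3, 0, 6 and 2 without div0 replicates 1 and 2 and div12_48_u replicates 1 and 2.

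Upstream of S phase, cyclin D3 and p107 fell and RB and p27 rose. Ccnd3, the D cyclin needed by dividing B cells (chromosome 17, 47505051 to 47599691), measured 224 and 251 TPM in div0 and 139.8 and 127 in div12_48_u (−0.83 ± 0.14, adjusted p = 0.00743). Ccnd2, the D cyclin induced by antigen receptor signals, measured 204 and 224 TPM against 191 and 174, a difference that did not pass the test (−0.23 ± 0.14, adjusted p = 0.30). Rbl1, which encodes p107, went from 93.4 and 105 TPM to 59.7 and 46.0 (−0.91 ± 0.15, adjusted p = 0.00689). Rb1 went the other way, from 106 and 94.3 TPM to 169.6 and 155 (0.69 ± 0.13, adjusted p = 0.0114). Cdkn1b, the inhibitor p27 that restrains cyclin E complexes, went from 129 and 122 TPM to 156 and 171 (0.38 ± 0.10, adjusted p = 0.0364), still under its mean of 287 TPM at rest. These 2 and Ccnd3 and Rbl1 are the only called genes among 11 D cyclins, partners and pocket proteins and 5 CDK inhibitors tested. All 4 were lost without div0 replicate 2 (adjusted p from 0.0836 to 0.231), Ccnd3 (0.0553) and Cdkn1b (0.168) without div12_48_u replicate 2, Rb1 (0.0719) and Cdkn1b (0.0819) without div12_48_u replicate 1, and Cdkn1b without div0 replicate 1 (0.12). Cdkn1b also missed the threshold with median-ratio scaling (0.104), quantile normalization (0.0988), no trend (0.0622) and the most abundant transcript (0.0528).

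Myc, the growth regulator that sets how long B cells go on dividing, was not separated between the groups. It measured 177 and 202 TPM in div0 and 212 and 173 in div12_48_u (0.02 ± 0.35, adjusted p = 0.98), with overlapping libraries, and the sign of this small difference turned under 2 scalings and without 2 of the libraries. None of the 8 tested genes of the MYC and MYB list was called (0 calls in the main test, median −0.01).

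Some transcripts linked to quiescence and to FOXO factors were higher, and members of both lists also rose in dividing cells, as given below. Of 28 tested quiescence regulators 4 rose (Pik3ip1, Tsc1, Tob1 and Foxo4), 2 fell (Tcf7 and Lef1) and the median was 0.27. These are 14.3% and 7.14% of the list, not far from the 10.2% and 5.20% of all genes. Of 17 FOXO-linked and PI3K feedback genes 5 rose (29.4%, beside 10.2% of all genes) and 0 fell, with a median of 0.42. S1pr1, the receptor for exit from lymphoid tissue and a target of FOXO1 through Klf2, measured 46.6 and 43.2 TPM in div0 and 137 and 195 in div12_48_u (1.84 ± 0.29, adjusted p = 0.00631). Pik3ip1, an inhibitor of PI3 kinase, went from 32.7 and 29.9 TPM to 76.9 and 109 (1.52 ± 0.24, adjusted p = 0.00650). Both Phase II levels of either gene exceeded both Phase I levels and stayed under the means at rest for S1pr1 (704 TPM) and Pik3ip1 (119 TPM). Pink1, a kinase of mitochondrial quality control, went from 70.9 and 56.6 TPM to 98.1 and 103 (0.66 ± 0.15, adjusted p = 0.0215). Ccng2, a cyclin of non-dividing cells, went from 125 and 116 TPM to 183 and 174 (0.56 ± 0.11, adjusted p = 0.0114). Tsc1, which restrains mTORC1, went from 46.8 and 48.8 TPM to 70.9 and 64.1 (0.49 ± 0.12, adjusted p = 0.0284). Tob1, an anti-proliferative factor, went from 42.2 and 40.9 TPM to 55.8 and 60.2 (0.47 ± 0.13, adjusted p = 0.0474).

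The 2 quiescence-list genes that fell are HMG-box factors better known from T cells and early B cells. Tcf7 went from 16.9 and 22.9 TPM to 9.27 and 4.42 (−1.47 ± 0.37, adjusted p = 0.0305), and Lef1 from 54.2 and 54.6 TPM to 35.3 and 19.8 (−1.01 ± 0.24, adjusted p = 0.0275). In Tcf7 and Lef1 the lowest level was that of div12_48_u replicate 2. Of the 8 quiescence and FOXO-linked genes with levels given here, all were lost without div0 replicate 2 (adjusted p from 0.0658 to 0.249), 4 without div0 replicate 1 (0.0828 to 0.165), 4 without div12_48_u replicate 1 (0.0689 to 0.149) and 6 without div12_48_u replicate 2 (0.0546 to 0.184). Tcf7, Tsc1 and Tob1 missed the threshold with the most abundant transcript (0.112, 0.248 and 0.0717), Tcf7, Lef1 and Tob1 without a filter (0.0645, 0.0553 and 0.0688), Tcf7 and Lef1 in a fit of the 4 libraries (0.0628 and 0.0799), Tob1 and Pink1 with median-ratio scaling (0.0561 and 0.0509), and Tob1 with quantile normalization (0.0605) and no trend (0.0587).

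Antigen receptor signals switch on immediate early genes within minutes to hours. Of 20 tested 7 rose (35%, beside 10.2% of all genes), 13 were not called, 0 fell and the median was 0.78. Fos, a subunit of AP-1, measured 3.74 and 1.83 TPM in div0 and 18.0 and 42.4 in div12_48_u (2.97 ± 0.72, adjusted p = 0.0277), far under its mean of 1336 TPM at rest. Egr2, a zinc finger factor tied to restraint of lymphocyte activation, went from 22.96 and 15.8 TPM to 119 and 108 (2.51 ± 0.42, adjusted p = 0.00776). Egr1, its relative, went from 219 and 88.1 TPM to 691 and 466 (2.02 ± 0.54, adjusted p = 0.0402). The div0 replicates of Egr1 differed from each other more than 2-fold, and both stayed under both Phase II levels. Dusp2, a nuclear MAP kinase phosphatase on chromosome 2 (127336159 to 127338376), went from 263 and 217 TPM to 527 and 552 (1.17 ± 0.10, adjusted p = 9.62e-04). Zfp36, which destabilises cytokine RNA, went from 634 and 384 TPM to 1109 and 1159.6 (1.20 ± 0.34, adjusted p = 0.0478). Dusp2 was called under all of these settings except the fold threshold of 2. The rises of the list numbered 3, 1, 2 and 2 without div0 replicates 1 and 2 and div12_48_u replicates 1 and 2, and 4 under either scaling. Fos, Egr1 and Zfp36 were lost without div12_48_u replicate 1 (adjusted p from 0.0606 to 0.194), without div12_48_u replicate 2 (0.101 to 0.168) and without a filter (0.0596 to 0.0923), those and Egr2 without div0 replicate 2 (0.0836 to 0.304), and Fos and Zfp36 without div0 replicate 1 (0.08 and 0.059) and with a pseudocount of 5 (0.0573 and 0.0566). Egr1 and Zfp36 also missed it under median-ratio scaling (0.0528 and 0.0599), quantile normalization (0.0503 and 0.0791), no trend (0.0618 and 0.0729) and the most abundant transcript (0.0507 and 0.059), and Egr1 in a fit of the 4 libraries (0.0599).

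Some components of antigen receptor signalling rose. Of 27 tested 8 rose (29.6%, beside 10.2% of all genes), 19 were not called, 0 fell and the median was 0.22. Nfatc1, the calcium-regulated factor, measured 231 and 239 TPM in div0 and 627 and 593 in div12_48_u (1.37 ± 0.20, adjusted p = 0.00527). Vav3, an exchange factor for small GTPases, went from 26.3 and 21.4 TPM to 48.0 and 51.0 (1.03 ± 0.13, adjusted p = 0.00295). Pik3cd, the p110 delta subunit of PI3 kinase, went from 301 and 299.8 TPM to 515 and 551 (0.82 ± 0.14, adjusted p = 0.00776). The Phase II levels of Nfatc1, Vav3 and Pik3cd also lay above the means at rest (355, 23.5 and 478 TPM). Btk, the Tec kinase, went from 366 and 345 TPM to 508 and 562 (0.59 ± 0.12, adjusted p = 0.0147). Pik3ap1, the adaptor BCAP, went from 432 and 391 TPM to 633 and 590 (0.57 ± 0.10, adjusted p = 0.00876). Lck, a Src-family kinase best known from T cells and also made by B-1 and some activated B cells, had the smallest adjusted p of these genes. It went from 125 and 126 TPM to 346 and 401 (1.56 ± 0.09, adjusted p = 3.30e-04), while the T cell marker Cd3e was listed at 0.33 and 0.11 TPM in div0 and at 0 and 0.12 in div12_48_u. Vav3 and Lck were called without any 1 of the 4 libraries. Without div0 replicate 2, Nfatc1, Pik3cd, Btk and Pik3ap1 were lost (adjusted p from 0.0505 to 0.123), without div12_48_u replicate 2 Pik3cd and Btk (0.0561 and 0.0902), without div0 replicate 1 Btk (0.0611) and without div12_48_u replicate 1 Pik3ap1 (0.0608), and the list's rises numbered 5, 1, 4 and 4 without div0 replicates 1 and 2 and div12_48_u replicates 1 and 2.

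Of the lists used here, that of autophagy and lysosome held the most rises. Of 46 tested members 19 rose (41.3%, beside 10.2% of all genes), 0 fell, 40 had a change above 0 and the median was 0.36. Those that rose span the proton pump, hydrolases, membrane proteins and the autophagy core (Ulk1, Atg14, Atg16l1, Map1lc3b, Gabarap and Sqstm1). Atp6v0a1, a membrane subunit of the proton pump (chromosome 11, 101009452 to 101063719), measured 177 and 153 TPM in div0 and 405 and 376 in div12_48_u (1.24 ± 0.12, adjusted p = 0.00115), above its mean of 184 TPM at rest. Gaa, the acid glucosidase that breaks down glycogen, went from 54.1 and 57.2 TPM to 114 and 119 (1.05 ± 0.18, adjusted p = 0.00795). Ctsc, a cathepsin, went from 172 and 164 TPM to 292 and 276 (0.75 ± 0.13, adjusted p = 0.00799). In all of these the Phase II replicates lay close together and well apart from Phase I. Ctsa, the protective protein of lysosomal sialidase, went from 183 and 178 TPM to 285 and 310.4 (0.72 ± 0.09, adjusted p = 0.00282). Hexa, a beta-hexosaminidase subunit, went from 159.6 and 147 TPM to 247 and 258 (0.71 ± 0.12, adjusted p = 0.00684). Among the genes with printed promoters, Mcoln1, the lysosomal calcium channel, went from 99.1 and 95.2 TPM to 151 and 152 (0.64 ± 0.10), and Lamp1, a membrane glycoprotein, from 263 and 279 TPM to 345 and 363 (0.38 ± 0.09). The list's rises numbered 9 with median-ratio scaling, 13 with quantile normalization and 12 with the most abundant transcript, and 6, 2, 7 and 5 without div0 replicates 1 and 2 and div12_48_u replicates 1 and 2. Atp6v0a1 and Ctsa were called without any 1 library, while Gaa, Ctsc and Hexa were lost without div0 replicate 2 (adjusted p from 0.0705 to 0.0844), Gaa without div0 replicate 1 (0.0535) and div12_48_u replicate 2 (0.0552), and Ctsc without div12_48_u replicate 1 (0.0537).

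CACGTG, printed above from Lamp1, Mcoln1 and Ctsa, stood in the promoters of 7 of the 16 lysosome and autophagy genes that rose and have one in the table (43.8%), against 11.6% of tested genes and 8.09% of all. Among list members that were not called, 5 of 19 held it (26.3%). The longer palindrome TCACGTGA stood in 3 of the 16 (Ctsa, Mcoln1 and Atp6v0d1), against 2.18% of tested genes.

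Within the BCL2 family, 4 of 14 tested genes rose (28.6%, beside 10.2% of all genes) and 0 fell, and all 4 promote death. Bcl2l11, the BH3-only protein BIM that limits activated lymphocytes (chromosome 2, 128126038 to 128162547), measured 67.4 and 66.3 TPM in div0 and 195 and 198 in div12_48_u (1.54 ± 0.33, adjusted p = 0.0179). Bbc3, the BH3-only protein PUMA, went from 36.5 and 34.0 TPM to 78.6 and 74.6 (1.10 ± 0.19, adjusted p = 0.00812). Bmf, another BH3-only protein, went from 35.7 and 32.2 TPM to 52.1 and 51.0 (0.59 ± 0.15, adjusted p = 0.0330). Bax, an effector of the family, went from 335 and 338 TPM to 406 and 407 (0.27 ± 0.07, adjusted p = 0.0394). In these genes the replicates of each group nearly coincided and the groups were apart. The family's median was −0.11, and 8 of the 14 changes were below 0. Under median-ratio scaling and quantile normalization 2 members rose and 2 fell. The rises numbered 1, 0, 0 and 1 without div0 replicates 1 and 2 and div12_48_u replicates 1 and 2.

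Caspases and death receptors moved both ways. Of 21 tested, IAPs included, 3 rose (14.3%, beside 10.2% of all genes) and 2 fell (9.52%, beside 5.20%). Survivin is counted above. Casp4, the inflammatory caspase-11, went from 145 and 145 TPM to 250.3 and 254 (0.80 ± 0.09, adjusted p = 0.00190). Casp6, an executioner caspase, went from 45.8 and 45.1 TPM to 74.0 and 77.1 (0.72 ± 0.13, adjusted p = 0.00876). Casp1, which matures interleukin-1, went from 177 and 173 TPM to 243 and 260.2 (0.52 ± 0.11, adjusted p = 0.0157). Ripk3, the kinase of necroptosis, fell from 127 and 127 TPM to 87.2 and 86.1 (−0.55 ± 0.08, adjusted p = 0.00593). Of 13 tested p53 targets 3 rose (23.1%, beside 10.2% of all genes), namely Bbc3, Bax and Trp53inp1, 2 of them from the BCL2 family. Of the 8 death genes with levels given here, Casp4 alone was called without any 1 library. Without div0 replicate 1, 5 of them were lost (adjusted p from 0.0539 to 0.177), without div0 replicate 2, 7 (0.0706 to 0.225), without div12_48_u replicate 1, 5 (0.0515 to 0.140), and without div12_48_u replicate 2, 5 (0.0567 to 0.138). Bmf, Bax and Casp1 missed the threshold with median-ratio scaling (0.0701, 0.202 and 0.0504), Bmf and Bax with quantile normalization (0.0799 and 0.114), Bmf, Bax and Ripk3 with the most abundant transcript (0.0522 to 0.123), Bmf without a filter (0.0552), and Bax with no trend (0.0862).

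Of 34 genes of the NF-kB and CD40 response 5 fell (14.7%, beside 5.20% of all genes) and 0 rose, with a median of −0.10. Fscn1, the actin bundler fascin that CD40 and NF-kB induce, had the largest fall among the named genes that average 10 TPM or more in the higher group, from 35.2 and 48.9 TPM to 12.5 and 7.91 (−1.95 ± 0.37, adjusted p = 0.0115). Ccl5, a chemokine, went from 18.0 and 29.7 TPM to 6.10 and 7.97 (−1.60 ± 0.37, adjusted p = 0.0238). Cd40, the receptor engaged in both phases, went from 489 and 455 TPM to 319.7 and 245 (−0.75 ± 0.17, adjusted p = 0.0215). Traf1, an adaptor induced by NF-kB, went from 286 and 287 TPM to 207 and 169 (−0.61 ± 0.13, adjusted p = 0.0176). Slamf1, a SLAM receptor, went from 66.0 and 59.4 TPM to 48.5 and 40.5 (−0.49 ± 0.13, adjusted p = 0.0441). Each Phase II level lay under each Phase I level in these 5 genes. Without div0 replicate 2 and without div12_48_u replicate 2 all 5 calls were lost (adjusted p from 0.108 to 0.19 and from 0.0786 to 0.2), without div0 replicate 1 Slamf1, Cd40 and Traf1 (0.0897 to 0.223) and without div12_48_u replicate 1 Ccl5 and Slamf1 (0.131 and 0.0631). With the most abundant transcript Slamf1, Cd40 and Traf1 were lost (0.0772 to 0.159), without a filter Ccl5 and Slamf1 (0.0542 and 0.065), and Slamf1 also in a fit of the 4 libraries (0.0638) and with no trend (0.056).

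Genes of B cell identity moved both ways. Fcer2a, the low-affinity IgE receptor CD23 of follicular B cells (chromosome 8, 3681737 to 3694175), measured 3311 and 3158 TPM in div0 and 2089 and 1628 in div12_48_u (−0.81 ± 0.13, adjusted p = 0.00743). It is 1 of 4 falls (16.7%, beside 5.20% of all genes), with 1 rise (4.17%, beside 10.2%), among 24 resting B cell genes. Cd38, an ectoenzyme kept by naive and memory cells, went from 221 and 226 TPM to 432 and 416 (0.92 ± 0.11, adjusted p = 0.00295). Mef2c, a factor of B cell proliferation and germinal centres, went from 311 and 273 TPM to 429.8 and 397 (0.50 ± 0.09, adjusted p = 0.0109). These 2 are the called genes of 24 of the germinal centre and memory list (8.33% rose, beside 10.2% of all genes). Bhlhe41, a regulator of B-1a cells, went from 12.8 and 15.6 TPM to 45.0 and 43.1 (1.58 ± 0.17, adjusted p = 0.00207), more than its mean of 19.6 TPM at rest. Cd5, which dampens receptor signals in B-1a cells, went from 13.3 and 14.7 TPM to 28.5 and 28.5 (0.98 ± 0.11, adjusted p = 0.00215). Anxa2, an annexin of the same list, fell from 13.9 and 14.6 TPM to 4.44 and 5.33 (−1.38 ± 0.19, adjusted p = 0.00368). That B-1-like and innate list had 5 rises and 5 falls among 23 tested genes and a median of 0.02. These are 21.7% each, beside 10.2% and 5.20% of all genes.

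Of 10 tested plasma cell genes 2 rose (20%, beside 10.2% of all genes), 0 fell and 8 were not called, with a median of 0.62. Prdm1, the regulator BLIMP-1, measured 4.12 and 4.58 TPM in div0 and 8.38 and 8.26 in div12_48_u, which did not pass the test (0.80 ± 0.38, adjusted p = 0.19). Sdc1, the surface proteoglycan CD138, rose from 3.80 and 4.01 TPM to 10.3 and 29.5 (1.92 ± 0.50, adjusted p = 0.0366), the Phase II replicates differing more than 2-fold from each other. Trp53inp1 was the other rise, Xbp1 was not called (−0.21 ± 0.12) and Tnfrsf17 was listed at 0 in all 4 libraries. Of the genes of these 2 paragraphs, Cd38, Bhlhe41, Cd5 and Anxa2 were called without any 1 of the 4 libraries. Sdc1 was lost without div0 replicate 1 (adjusted p = 0.149), div0 replicate 2 (0.172) and div12_48_u replicate 2 (0.17), Fcer2a without either div0 replicate (0.0513 and 0.0644), and Mef2c without div0 replicate 2 (0.111) and div12_48_u replicate 1 (0.0705). Mef2c was also lost with the most abundant transcript (0.165), and Sdc1 with a pseudocount of 5, no filter, quantile normalization, no trend and a fit of the 4 libraries (0.0538 to 0.0744).

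Of 28 tested receptors for homing, egress and adhesion 5 rose (17.9%, beside 10.2% of all genes) and 0 fell. The median was 0.02, against 0.08 over all genes, and 13 of the 28 changes were below 0. S1pr1 is described above. S1pr3, a receptor for sphingosine 1-phosphate that helps place marginal zone B cells (chromosome 13, 51408639 to 51422797), measured 16.2 and 17.2 TPM in div0 and 61.0 and 78.4 in div12_48_u (1.99 ± 0.22, adjusted p = 0.00197). Cxcr4, the receptor for CXCL12, went from 56.9 and 77.0 TPM to 143 and 158 (1.17 ± 0.17, adjusted p = 0.00482), against a mean of 2202 TPM at rest. Ccr1, a receptor for inflammatory chemokines, went from 84.9 and 77.4 TPM to 178 and 174 (1.11 ± 0.14, adjusted p = 0.00282), against 15.3 TPM at rest. The groups were apart in all 3 genes. S1pr3, Cxcr4 and Ccr1 were called without any 1 of the 4 libraries. With the most abundant transcript in place of the sum, Cxcr4 was not called (adjusted p = 0.545).

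Among the 14 largest rises, Apoe and Ephx1 had the highest levels in div12_48_u. Apoe, the lipoprotein that carries cholesterol out of cells (chromosome 7, 19696109 to 19699188), measured 108 and 96.7 TPM in div0 and 693 and 1169 in div12_48_u (3.13 ± 0.38, adjusted p = 0.00282), near its mean of 812 TPM at rest. Ephx1, the microsomal epoxide hydrolase, went from 216 and 193 TPM to 834 and 1131 (2.24 ± 0.21, adjusted p = 9.67e-04), against 386 TPM at rest. Ndrg1, a stress and hypoxia gene, went from 19.4 and 16.7 TPM to 66.1 and 76.1 (1.92 ± 0.13, adjusted p = 3.30e-04), against 25.7 TPM at rest. These 3 were called without any 1 of the 4 libraries. Tgfb3, a transforming growth factor, went from 4.61 and 4.30 TPM to 22.7 and 62.7 (2.83 ± 0.79, adjusted p = 0.0464), with Phase II replicates more than 2-fold apart. Actn1, an actinin of focal adhesions, went from 6.93 and 10.002 TPM to 33.5 and 46.2 (2.11 ± 0.46, adjusted p = 0.0196). Sema6d, a semaphorin, went from 5.60 and 4.99 TPM to 40.0 and 16.7 (2.10 ± 0.50, adjusted p = 0.0275). Abcb4, a phospholipid transporter, rose by 1.98 ± 0.34, Tbx6, a T-box factor, by 1.97 ± 0.41 and Nxnl2, a nucleoredoxin-like protein, by 1.94 ± 0.37. Their levels were at most 35.4 TPM, and their groups did not overlap, as the rule for the large rises required. Of these 9 rises, 5 were lost without div0 replicate 1 (adjusted p from 0.0513 to 0.161), 6 without div0 replicate 2 (0.0762 to 0.215), 5 without div12_48_u replicate 1 (0.0647 to 0.157) and 5 without div12_48_u replicate 2 (0.0584 to 0.218). Tgfb3 was lost with a pseudocount of 5, no filter, either scaling, no trend and the most abundant transcript (0.0535 to 0.0921), and Sema6d without a filter (0.0587).

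The other large falls were of genes at low to middle levels. Carmil3, a regulator of actin capping, went from 64.5 and 77.9 TPM to 26.1 and 13.5 (−1.86 ± 0.29, adjusted p = 0.00631). Csrp2, a LIM-domain protein (chromosome 10, 110919789 to 110939622), went from 32.9 and 37.3 TPM to 9.03 and 11.6 (−1.68 ± 0.14, adjusted p = 8.16e-04), under its mean of 50.3 TPM at rest. Gh, growth hormone, went from 45.7 and 61.8 TPM to 20.3 and 11.6 (−1.73 ± 0.27, adjusted p = 0.00596). Hes1, a repressor downstream of Notch, went from 14.3 and 13.4 TPM to 3.69 and 4.77 (−1.51 ± 0.27, adjusted p = 0.00922), against 128 TPM at rest. Adipoq, adiponectin, fell by 1.50 ± 0.23, Cyp27a1, a sterol hydroxylase, by 1.39 ± 0.22, and Rtp4, an interferon-induced chaperone, by 1.60 ± 0.37, all from under 20 TPM. In each of these 7 genes both Phase II libraries were the lowest of the 4, as the rule for the large falls required. Together with Mx1, described below, 7 of 8 were lost without div0 replicate 2 (adjusted p from 0.0505 to 0.156), and Rtp4, Hes1 and Mx1 without div0 replicate 1 (0.0921, 0.057 and 0.0576) and without div12_48_u replicate 1 (0.135, 0.0608 and 0.0686). Csrp2 was called without any 1 library, and Rtp4 also missed the threshold without a filter (0.052).

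Metabolic lists changed in few members each. Of 21 glycolytic genes 2 rose and 2 fell (9.52% each, beside 10.2% and 5.20% of all genes). Gapdh went from 4264 and 5054 TPM to 3488 and 3141 (−0.49 ± 0.11, adjusted p = 0.0207) and Pgk1 from 503 and 561 to 434 and 445 (−0.27 ± 0.08, adjusted p = 0.0434). Both aldolases rose, Aldoa from 1216 and 1208 TPM to 1618 and 1610 (0.41 ± 0.08, adjusted p = 0.0126) and Aldoc from 17.9 and 19.8 to 31.1 and 29.3 (0.65 ± 0.14, adjusted p = 0.0166). In oxidative phosphorylation 5 of 41 fell (12.2%, beside 5.20% of all genes) and 0 rose, with a median of −0.16. Atp5k, a subunit of ATP synthase, fell most of the 5, from 976 and 965 TPM to 699 and 667 (−0.51 ± 0.13, adjusted p = 0.0316). Of 23 cholesterol synthesis genes 3 fell (13.0%, beside 5.20%) and 1 rose (4.35%, beside 10.2%), with a median of −0.33. Idi1, an isomerase of the isoprenoid pathway, fell from 147 and 164 TPM to 99.4 and 66.0 (−0.93 ± 0.21, adjusted p = 0.0218). On the side of efflux and lipid use, Abca1, the pump that loads Apoe with cholesterol, rose by 0.80 ± 0.23 and Cpt1a, which admits fatty acids to mitochondria, by 0.78 ± 0.22, while Fabp5, a fatty acid carrier, fell by 1.00 ± 0.18. Of 12 serine and one-carbon genes 4 fell (33.3%, beside 5.20% of all genes). None of these 9 genes with values here was called without div0 replicate 2 (adjusted p from 0.0901 to 0.315), and 7 were lost without div0 replicate 1 (0.0708 to 0.16), 7 without div12_48_u replicate 1 (0.0521 to 0.174) and 9 without div12_48_u replicate 2 (0.0649 to 0.202). Abca1 and Cpt1a were lost with a pseudocount of 5, no filter, quantile normalization, no trend and the most abundant transcript (0.0515 to 0.0923), Abca1 with median-ratio scaling (0.0694) and without the naive group (0.0506), Gapdh, Pgk1 and Idi1 in a fit of the 4 libraries (0.0541 to 0.0654), Pgk1 with no trend (0.0939) and the most abundant transcript (0.0597), and Atp5k without a filter (0.0561) and with no trend (0.059).

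Lists of ribosomal protein, ribosome assembly and translation genes held few calls. Among 24 cytosolic ribosomal proteins 1 fell, Rpl7a, and 0 rose, with a median of −0.01. None of 12 ribosome assembly genes and 1 of 26 translation factors and tRNA synthetases, Eif5a, was called. Their medians were −0.12 and −0.06, against 0.08 over all genes. Of 32 protein folding and ER stress genes 4 fell (12.5%, beside 5.20% of all genes) and 0 rose, with a median of −0.19. The 4 were Sdf2l1, Manf, Cct7 and Cct5, and 10 fell under either scaling. Of 6 proteasome genes 2 fell (33.3%, beside 5.20%), and all 6 changes were below 0, with a median of −0.18. None of 7 amino acid transport and ATF4 target genes was called.

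Interferon and antigen presentation genes were lower in part. Of 31 interferon response genes 5 fell (16.1%, beside 5.20% of all genes) and 3 rose (9.68%, beside 10.2%), with a median of −0.28. The falls numbered 9 with median-ratio scaling and 8 with quantile normalization. Mx1, an antiviral GTPase, measured 17.6 and 18.0 TPM in div0 and 4.83 and 7.27 in div12_48_u (−1.44 ± 0.27, adjusted p = 0.0108). Ifit2 went from 12.8 and 12.5 TPM to 4.87 and 5.60 (−1.14 ± 0.17, adjusted p = 0.00563), and Isg15, a ubiquitin-like modifier, from 46.0 and 40.7 to 27.1 and 21.7 (−0.81 ± 0.18, adjusted p = 0.0207). Samhd1, which depletes nucleotides in resting cells, rose from 257 and 256 TPM to 389 and 449 (0.70 ± 0.18, adjusted p = 0.0361), against 985 TPM at rest. Of 15 class I genes 3 fell (20%, beside 5.20% of all genes). Among them, H2-Q7 went from 1360.1 and 1653 TPM to 982 and 887 (−0.68 ± 0.13, adjusted p = 0.0122). H2-K1 went from 5066 and 5521 TPM to 4131 and 4169 (−0.35 ± 0.08, adjusted p = 0.0225). Of 10 class II genes 1 rose (10%, beside 10.2% of all genes), March1, a ligase that turns class II over. Without div0 replicate 2 all 6 calls were lost (adjusted p from 0.0612 to 0.196), without div0 replicate 1, 4 (0.0576 to 0.144), without div12_48_u replicate 1, 3 (0.0686 to 0.0949), and without div12_48_u replicate 2, 4 (0.0801 to 0.168). Samhd1 missed the threshold without a filter (0.0665) and with no trend (0.0597), and H2-K1 with quantile normalization (0.0604) and in a fit of the 4 libraries (0.0563).

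Among 43 chromatin modifiers 9 rose (20.9%, beside 10.2% of all genes) and 1 fell, Suv39h1 (2.33%, beside 5.20%), with a median of 0.20. Kdm3a, a histone H3 lysine demethylase (chromosome 6, 71588972 to 71632990), went from 73.1 and 68.6 TPM to 127 and 133 (0.87 ± 0.09, adjusted p = 0.00188). Hdac5, a class IIa deacetylase, went from 52.5 and 58.0 TPM to 88.9 and 102 (0.78 ± 0.15, adjusted p = 0.0139). Tet2, which oxidises methylcytosine, went from 37.3 and 37.4 TPM to 66.2 and 57.6 (0.71 ± 0.14, adjusted p = 0.0147). Kmt2d and Kmt2a, methyltransferases of histone H3, rose by 0.71 ± 0.17 and 0.70 ± 0.19. The 5 genes were higher in both Phase II libraries than in either of Phase I. Kdm3a was called without any 1 library but not with the most abundant transcript (adjusted p = 0.546), which also ended the calls of Hdac5 (0.288) and Kmt2a (0.0514). Of the 5, 4 were lost without either div0 replicate (0.0796 to 0.145 and 0.0844 to 0.207) and 3 without either div12_48_u replicate (0.0887 to 0.206 and 0.0707 to 0.0867), and Kmt2d (0.0537) and Kmt2a (0.0728) without a filter, Kmt2a also with no trend (0.0632).

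**Figure D3:**
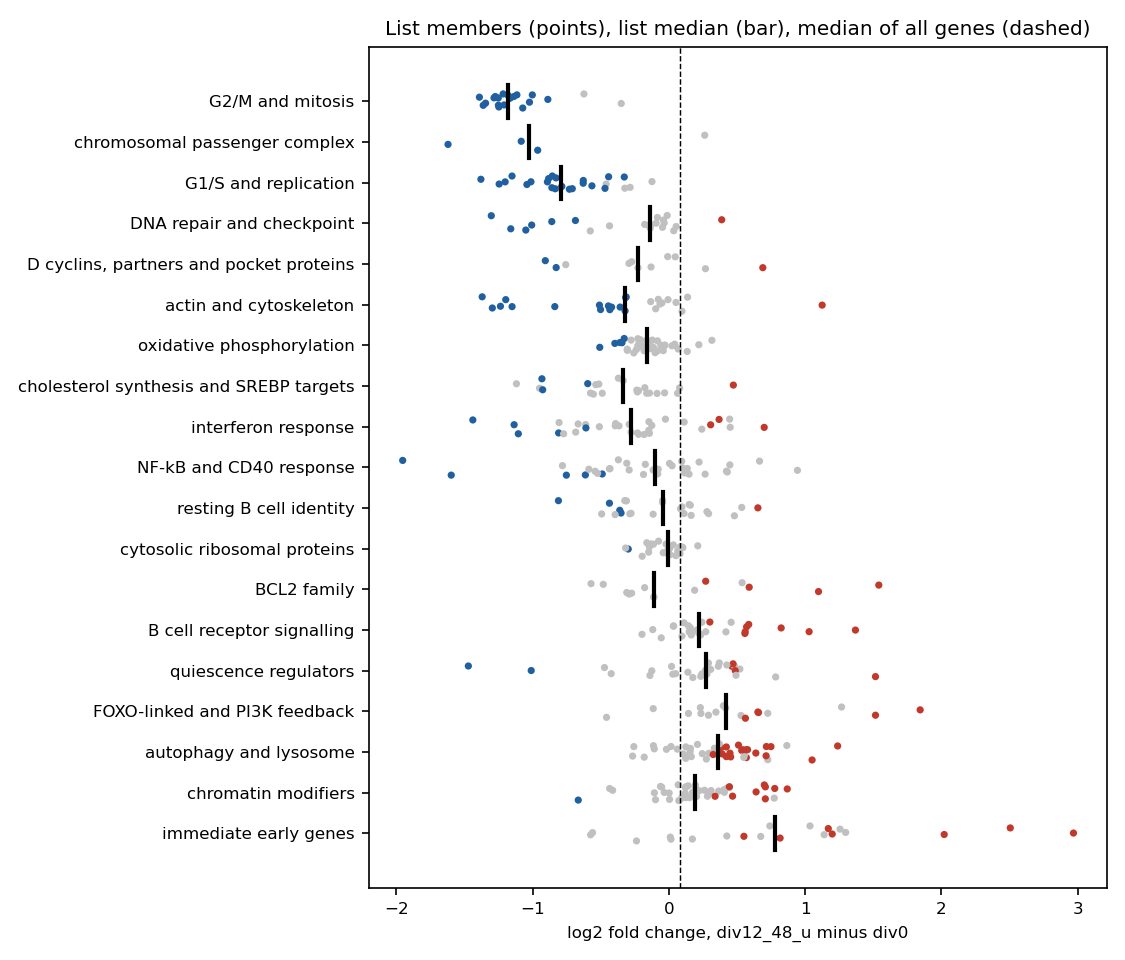
Log2 fold change, div12_48_u minus div0, of the tested members (points) of 19 gene lists, with the list's median (bar) and the median of all genes tested, 0.08 (dashed line). Blue points fell, red points rose and grey points were not called. The mitotic and replication lists lie wholly to the left of 0, and the lysosome, receptor signalling and immediate early lists lie mostly to the right.

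Markers of other cells were counted beside these results. Of 8 T cell markers Lck rose, which carried nearly all of their summed level (131 and 135 TPM in div0, 356 and 407 in div12_48_u), and Thy1 was at or below 0.27 TPM in all 4 libraries. None of 6 NK and of 4 dendritic markers was called, with sums of 6 to 7 TPM and of 32 to 45 TPM. Of 15 myeloid markers, with sums of 304 and 425 TPM in div0 and 492 and 484 in div12_48_u, Adgre1, which encodes F4/80, rose from 34.4 and 30.0 TPM to 108 and 103 (adjusted p = 0.0298), C1qa was at 0 and Csf1r at or below 1.98 TPM. S100a8, a neutrophil protein, was called lower, at 2.13 and 8.67 TPM in div0 and listed at 0 in div12_48_u, and Lyz2, the myeloid lysozyme, stood at 78.4 TPM in div0 replicate 2 and at 1.64 to 9.34 TPM in the other 3 libraries. Most of the myeloid sum came from members not named here, so the low members named do not show that myeloid RNA was absent. The median change of the 15 was −0.04, with 5 above 0 and 9 below. Erythroid markers summed to 12 and 13 TPM in div0 and 36 and 45 in div12_48_u, nearly all from Hbb-b1, while Slc4a1 was listed at 0. Platelet markers summed to 6 and 4 TPM against 9 and 10, with rises of Gp1ba (0.78 ± 0.19) and Itga2b (0.68 ± 0.18), and Pf4 at or below 0.36 TPM. The part of such cells in the changes above was not tested. Lck and Hbb-b1 were called without any 1 of the 4 libraries, while Adgre1 was lost without each of them (adjusted p from 0.106 to 0.177), Itga2b likewise (0.0772 to 0.204), and S100a8 and Gp1ba without div0 replicate 2, div12_48_u replicate 1 or div12_48_u replicate 2 (0.092 to 0.215). Each of these 4 also missed the threshold under further settings (adjusted p from 0.0514 to 0.202).

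A change of phase was also measured in cells that did divide (div12_48_d against div12). That pair shares no library with the undivided pair, but both contrasts share 1 fit and its estimate of the spread. Time in culture, antibodies present and the number of cells taken for RNA change between the phases in both pairs. The share of all tested genes with the same sign in both was not computed. They also differ in division history: div12 and div12_48_d had both divided, whereas div0 had never divided and div12_48_u had. Between div12_48_d and div12, 706 genes were called (15.9%), 525 higher (11.9%) and 181 lower (4.09%). Of the 450 genes that rose in undivided cells, 429 had a change of the same sign in dividing cells, 259 also rose there (57.6% of these rises and 49.3% of those in dividing cells) and 3 fell. Of the 230 that fell, 214 had the same sign, 75 also fell (32.6% and 41.4%) and 1 rose. Mitotic genes had a median of −1.18 in undivided and −0.47 in dividing cells, where 0 of 21 were called, and replication genes −0.79 and −0.41, with 11 of 26 falling in dividing cells. The lysosome list had a median of 0.36 in undivided and 0.34 in dividing cells, and 19 and 14 of its 46 members rose. Plasma cell genes had a median of 0.62 and 1.51, and 7 of 10 rose in dividing cells. Immediate early genes had a median of 0.78 in undivided and 1.13 in dividing cells, and 7 and 8 of 20 rose. For quiescence regulators the medians were 0.27 and 0.20, and 4 and 6 of 28 rose. For FOXO-linked genes they were 0.42 and 0.35, with 5 and 4 of 17 rising. For CDK inhibitors they were 0.38 and 1.29, with 1 and 2 of 5 rising. Birc5 fell by 0.83 ± 0.15 in dividing cells (adjusted p = 0.00826), from a mean of 522 to 294 TPM.

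Whether a change differs between undivided and dividing cells was tested by the difference of the 2 contrasts. Over all genes limma called 0 (0%), with 438 at an unadjusted p under 0.05 and a smallest adjusted p of 0.0539. For Birc5 the difference was −0.79 ± 0.21 (unadjusted p = 0.00520, adjusted p = 0.217). The genes nearest to a call are named by their unadjusted p. Hbb-b1, a beta globin, measured 10.9 and 11.3 TPM in div0 and 34.0 and 43.5 in div12_48_u, with means of 22.7 TPM in div12 and 20.5 in div12_48_d (difference 1.84 ± 0.24, adjusted p = 0.0539). Dmxl1, an assembly factor of the proton pump, went from 82.1 and 75.0 TPM to 173 and 183 in undivided cells (1.17 ± 0.08) and from a mean of 55.4 to 68.7 in dividing cells (difference 0.87 ± 0.12, adjusted p = 0.0539). Ccr1 had a difference of 1.20 ± 0.19 and Slamf1 of 1.26 ± 0.19 (adjusted p = 0.0581 for each). In dividing cells Slamf1 fell from a mean of 54.5 to 15.5 TPM. In the other direction, Cd9, a tetraspanin of plasma and B-1 cells, measured 59.0 and 56.6 TPM in div0 and 68.0 and 80.7 in div12_48_u, but went from 59.1 to 269 TPM in dividing cells (difference −1.80 ± 0.20, adjusted p = 0.0539). Kcnn4, a calcium-activated potassium channel, went from 21.5 and 22.7 TPM to 26.2 and 22.6, and from 37.5 to 132 TPM in dividing cells (difference −1.65 ± 0.23, adjusted p = 0.0539). Alpl, alkaline phosphatase, fell from 19.6 and 23.4 TPM to 11.9 and 7.92 in undivided cells and rose from 19.3 to 48.4 TPM in dividing cells (difference −2.38 ± 0.34, adjusted p = 0.0539), and Anxa2 had a difference of −1.85 ± 0.27 (adjusted p = 0.0539). The fall of Alpl was lost without div0 replicate 1 (adjusted p = 0.0741), div0 replicate 2 (0.167) or div12_48_u replicate 2 (0.121). None of these 8 differences, nor that of Birc5, passed the threshold. Of these 9, 7 passed it with median-ratio scaling, 6 with a filter at 5 TPM, 5 with a pseudocount of 5, 4 with quantile normalization, 4 in a fit of the 8 libraries, 3 without div12_48_u replicate 1, 2 with the most abundant transcript, 2 with the replicate block and 0 or 1 under each other setting. Over all genes the number of calls ran from 0 to 23.

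**Figure D4:**
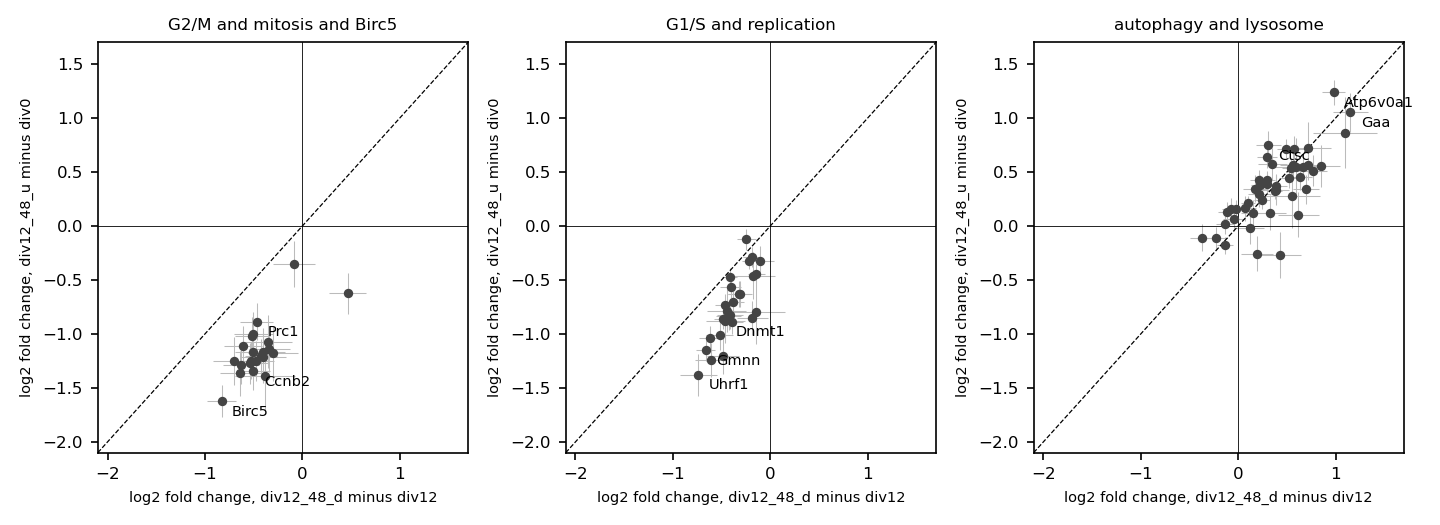
Log2 fold change from Phase I to Phase II in undivided cells (vertical axis, div12_48_u minus div0) against that in dividing cells (horizontal axis, div12_48_d minus div12) for tested members of 3 lists, with standard errors as grey lines, and equality as a dashed diagonal. Mitotic genes and Birc5 lie below the diagonal, replication genes mostly below it, and lysosome genes along it.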

How the data were processed

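RNA of 10 libraries was sequenced as 50 bp single-end reads from 100 ng of ribosome-depleted total RNA, per the labels' protocols. The authors deposited 1 table of TPM by RefSeq transcript, 13128 rows with values. Salmon, HISAT2, HTSeq, featureCounts, DESeq2 and the build mm10 are listed in the submitters' processing notes without roles or versions, and strand use is not given in those sources. From this table, 63 transcripts without a usable symbol were left out (0.204% to 0.379% of TPM) and 13065 were summed by symbol into 6610 genes, 734 of them at 0 in every library.

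The 4427 genes that reached 1 TPM in 2 or more libraries entered limma 3.58.1 (R 4.3.3) as log2(TPM + 1), with group as the only term over all 10 libraries (5 residual degrees of freedom, so the spread is borrowed from all groups), moderation with a trend and Benjamini-Hochberg adjustment. TPM keep no depth, so no count model and no counting interval was used. Nothing states separate cultures in Phase II, and p-values then measure only the spread between these samples. Replicate numbers were not used as a pairing in the main fit. The correlation of replicate differences over genes, given below, cannot tell whether they pair the samples.

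The comparison, the lists and their members were chosen with earlier results of these data known, and no list was tested as a set. Named genes are the 14 largest rises and 14 largest falls (10 TPM or more on average in the higher group, no overlap, leaving out histones, immunoglobulin segments, small RNAs and unnamed gene models), up to 5 called members a list (or up to 2 abundant ones), in any case Prdm1, Myc, Mki67, Cdkn1b, Ccnd2, Ccnd3, Birc5 and Aurkb, and the 4 smallest p each way for the difference. Ncapg2, Lck and the markers stand under their lists. A few named genes are counted in their lists and not reported singly here. Cdk1, Prc1, Mcm6, Lamp1 and Mcoln1 were picked for their promoters, and Xbp1, Thy1, Cd3e, Csf1r, Lyz2 and Pf4 for their role, after values were seen.

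Alternatives were a pseudocount of 0.1 or 5, no filter or 5 TPM, quantile normalization, median-ratio scaling, fitting just the libraries compared, no naive group, no trend, a replicate block, a test against a 2-fold change, the most abundant transcript and leaving out each library in turn, the lone library then being assumed to vary like the other groups. On simulated data (200 changed genes of 4427, 5 runs), 91.0% of 2-fold and 99.0% of 4-fold changes were called for div12_48_u against div0, with 4.31% false calls, and 75.4% and 97.6% for the difference, with 4.50% false. Positions are those of GRCm38.p6 (GENCODE), and promoters those of RefSeq, with 3435 of 4427 genes matched by symbol. Figures were drawn with matplotlib 3.10.9, and tables made with numpy 2.4.6 and pandas 2.3.3 in Python 3.11.15.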

Additional observations from a re-analysis of the deposited data

How the results depend on the processing

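The 680 calls (450 rises, 230 falls) became 236 (138, 98) without div0 replicate 1, 86 (61, 25) without div0 replicate 2, 289 (152, 137) without div12_48_u replicate 1 and 247 (176, 71) without div12_48_u replicate 2, and 0 (0, 0) against a fold of at least 2. Falls numbered 380 with median-ratio scaling and 361 with quantile normalization, and rises 288 with the most abundant transcript, which also tests fewer genes. For these and the changes below the cause was not tested unless stated. All other settings kept the count within 1.5 times. Of 155 named genes called, 29 were called under all settings but the fold threshold, and 89 under all but that and leaving out a library. Without div0 replicate 1, 75 were lost, without div0 replicate 2, 124, without div12_48_u replicate 1, 70, and without div12_48_u replicate 2, 89.

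For the difference between undivided and dividing cells, 0 calls became 15 (2 higher, 13 lower) with a pseudocount of 5, 7 (2, 5) with a filter at 5 TPM, 23 (7, 16) with median-ratio scaling, 8 (2, 6) with quantile normalization, 2 (0, 2) with the most abundant transcript, 11 (3, 8) in a fit of the 8 libraries, and 0 to 10 (0 to 2 higher, 0 to 8 lower) when a library was left out, namely 10 without div12_48_u replicate 1 and 2 without div12_48_u replicate 2, div12 replicate 2 or div12_48_d replicate 1.

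With the replicate number as a block, 586 genes were called (380 higher, 206 lower), and 3 differences (1, 2). The replicate differences of div0 and div12_48_u correlated at 0.0481 over genes, and those of all pairs of groups at −0.238 to 0.199. Such correlations cannot tell whether replicates of the same number share a pool or a culture. Under that block 19 named genes were lost.

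Signs turned for uncalled genes near 0. Leaving out a library, the value ran from −0.1312 to 0.1628 for Myc (−0.0764 without div0 replicate 1), −0.0699 to 0.0015 for Irf4, −0.0086 to 0.0755 for Cd79a, −0.2387 to 0.0760 for Eomes (0.0165 without div12_48_u replicate 2), −0.3418 to 0.2233 for Flt3 and −0.0873 to 0.1266 for Xcr1 (−0.0510 without div0 replicate 1). With median-ratio scaling it was −0.0771 for Myc, −0.0226 for Cd74, −0.0599 for Cd79a and −0.0626 for Xcr1, with quantile normalization −0.0743 for Myc, 0.0087 for Npm1, −0.0000 for Cd74 and −0.0453 for Xcr1, and with the most abundant transcript 0.0893 for Irf4. Depth is unknown, so how far it limits low genes cannot be given.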
